A study of Mus musculus with 7 samples.

Results

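The 10 genes described here encode the interleukin-1 (IL-1) family cytokines of macrophages, the proteins that hold them in check, and the inflammasome that releases them. They are Il1a, Il1b, Il1rn, Il1r2, Il18, Il18bp, Nlrp3, Casp1, Casp4 and Gsdmd, taken by symbol from a table of 53379 genes. All 10 were found once each, and all 10 passed the filter on low counts that left 16234 genes for testing. The cells were macrophages positive for CD45, CD11b and F4/80, taken 21 days after C57BL/6J mice had received MC38 cells, which derive from a mouse colon tumour. One group had 4 mice with wild-type Gpr65, and the other had 3 mice in which Gpr65, a receptor for extracellular protons, was knocked out. All 7 mice had been fed a high-fat diet and carried the same tumour model, so neither diet nor tumour was compared. The sources used here do not give the age or sex of the mice or say in which cells Gpr65 was deleted, and the titles spell the gene Grp65.

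Total counts ranged from 22449772 to 30483733 per library, and knockout 1 had the fewest genes with a count (18276, against 20286 to 23163 elsewhere). Counts of Gpr65 were 1785 to 2912 per wild-type library and 20 to 30 per knockout library, a log2 fold change of -6.62 (SE 0.30, edgeR adjusted p = 8e-05), so the labels held for the targeted gene. All 12 macrophage markers examined were detected, at a summed 24603 to 48403 CPM (counts relative to library size, scaled by the TMM method), with knockout 2 the highest. Transcripts of cells that the sort should remove were also present, and their values stand beside the genes they bear on. In sorted bulk cells, fewer cells of a type and less RNA per cell cannot be told apart.

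As background, IL-1α and IL-1β bind the same receptor and drive inflammation through MyD88. IL-1β and IL-18 are made as inactive precursors, and caspase-1 cuts them after a sensor such as NLRP3 has assembled an inflammasome. Gasdermin D, cut by caspase-1 or by caspase-4 (called caspase-11 in mice), forms the membrane pore through which the cytokines leave. The receptor antagonist encoded by Il1rn, the decoy receptor encoded by Il1r2 and the soluble binding protein encoded by Il18bp block the cytokines outside this step. Transcript counts measure none of the cutting or the release.

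Il1a (chromosome 2, 129299610 to 129309972) and Il1b (chromosome 2, 129364570 to 129371139) are neighbours on the minus strand of GRCm38, 54597 bases apart. Their promoters are shown because both agonists come from this locus and yet differed in level in every library, and that of Il18bp because this gene varied the most. Each line gives the 250 bases before the RefSeq start site in GRCm38.p6, read along the gene on the minus strand, with matches to any of 8 searched motifs in capitals.
Il1b, chr2:129371140-129371389: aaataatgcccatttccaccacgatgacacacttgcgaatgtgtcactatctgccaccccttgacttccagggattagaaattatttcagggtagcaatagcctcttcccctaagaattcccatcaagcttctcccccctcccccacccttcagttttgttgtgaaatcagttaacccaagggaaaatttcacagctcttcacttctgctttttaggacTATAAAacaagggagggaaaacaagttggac
Il1a, chr2:129309973-129310222: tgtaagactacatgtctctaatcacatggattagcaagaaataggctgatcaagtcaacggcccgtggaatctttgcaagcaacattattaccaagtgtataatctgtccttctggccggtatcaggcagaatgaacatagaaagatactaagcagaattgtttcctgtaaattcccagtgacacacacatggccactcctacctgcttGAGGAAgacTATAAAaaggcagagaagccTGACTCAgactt
Il18bp, chr7:102018233-102018482: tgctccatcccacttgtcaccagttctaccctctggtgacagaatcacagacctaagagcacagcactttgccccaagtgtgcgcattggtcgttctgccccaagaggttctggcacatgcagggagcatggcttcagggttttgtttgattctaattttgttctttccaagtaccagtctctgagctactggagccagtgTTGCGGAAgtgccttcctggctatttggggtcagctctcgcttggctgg
A TATA box (TATAAA) lies 31 to 26 bases before the start of Il1b and 32 to 27 bases before that of Il1a, and 12.4% of 32851 RefSeq promoters hold one in the same window on either strand. The Il1a window also holds an AP-1 motif (TGANTCA, in 6.75% of promoters) and a PU.1 motif (GAGGAA, in 23.3%). The Il18bp window holds a C/EBP motif (TTNNGCAA, in 9.56%). This window lies inside the gene as GENCODE annotates it, whose outer start is at 102018690, upstream of the RefSeq start at 102018232. Bases before that outer start were not searched. None of the 3 windows matched the searched core of κB (in 45.8%), the interferon-stimulated response element (in 2.98%), the gamma-activated site (TTCNNNGAA, in 7.02%) or the cAMP response element half-site (TGACG, in 17.8%). The matches on both strands did not overlap each other, and they describe letters, not binding. RefSeq promoters were at hand for 9 of the 10 genes.

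None of the 10 genes was called between knockout and wild-type macrophages by edgeR's quasi-likelihood test with Benjamini-Hochberg adjustment at 0.05, where 0.037% of all tested genes were called (0.0246% higher and 0.0123% lower in knockout). The fold change was positive for 5 of them (Il18, Il18bp, Casp1, Casp4 and Gsdmd) and negative for 5 (Il1a, Il1b, Il1rn, Il1r2 and Nlrp3), beside 49.7% positive among all tested genes. Their median was 0.05 on the log2 scale, and that of all tested genes was -0.0016. At an unadjusted p under 0.05 there were 2 of the 10, Il1r2 on the lower side and Il18bp on the higher, where 5.37% of all tested genes passed (2.79% lower and 2.57% higher). DESeq2 called 0 of the 10, beside 0.704% of all genes, with an unadjusted p of 0.00882 for Il1r2 and 0.0463 for Il18bp. Limma voom, always run with library weights, called 0 of the 10, beside 0.0554% of all genes. Its unadjusted p was 0.00196 for Il18bp, 0.0163 for Casp4, 0.0460 for Gsdmd and 0.0633 for Il1r2. The share of all genes at an unadjusted p under 0.05 was taken for edgeR alone, so it is no measure for these values. The 10 genes were chosen with earlier results of these data known, so their counts describe them and test nothing further.

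**Figure D1:**
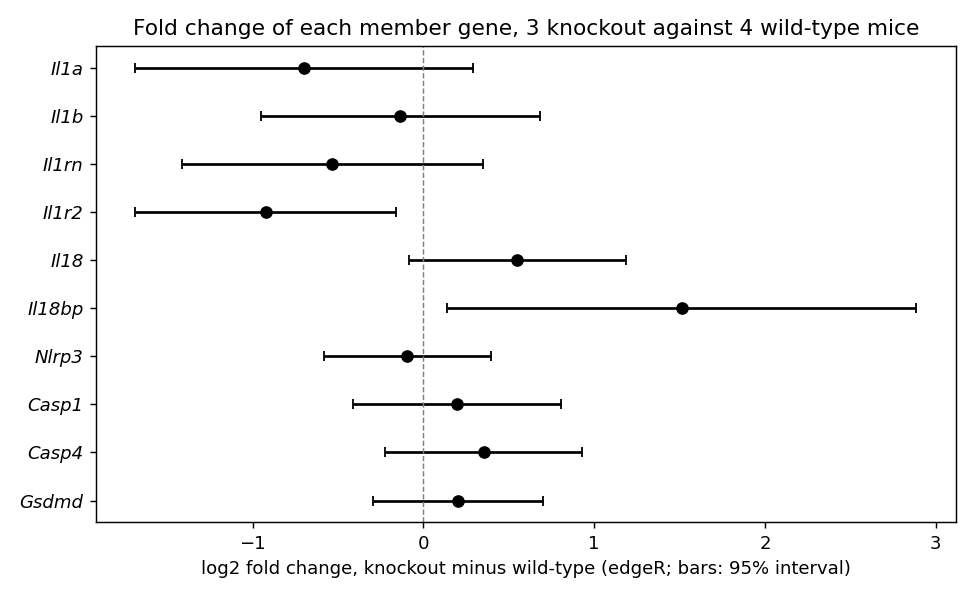
Log2 fold change of each of the 10 genes, knockout minus wild-type (horizontal axis), with points for the edgeR estimate and bars for its 95% interval (4 wild-type and 3 knockout mice). The interval spans 0 for 8 genes and lies off 0 for Il1r2, at -0.92, and Il18bp, at 1.51, and none of the 10 passed the adjusted threshold.

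Of the agonists, Il1b was by far the more abundant. Per kilobase of exon its level in wild-type macrophages was 1215 ± 588 CPM (SD, n = 4), rank 35 of 16216 genes with a known length, whereas Il1a stood at 44.8 ± 17.7 CPM per kilobase, rank 1429. Wild-type mice 1 to 4 carried 1712, 3996, 1720 and 1837 CPM of Il1b. Knockout mice 1 to 3 carried 1476, 2717 and 2137 CPM of it. Wild-type mouse 2 stood far above all other mice. The remaining wild-type mice lay close together, with knockouts 2 and 3 above them and knockout 1 below. Knockout minus wild-type, the estimate was -0.13 on the log2 scale (SE 0.36, edgeR adjusted p = 1.00), with a 95% interval of 0.518- to 1.60-fold. The sign turned to 0.27 without wild-type 2 and to 0.044 without knockout 1 (edgeR adjusted p = 1.00 and 0.984).

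Il1a encodes the agonist that acts without caspase-1 and is often held in or on the cell. Among wild-type mice it stood at 84.2, 126, 42.6 and 101 CPM, and among knockout mice at 41.6, 30.7 and 91.1 CPM. Knockouts 1 and 2 were the lowest of all libraries and knockout 3 lay among the wild-type mice, so the groups overlapped. The edgeR estimate was -0.70 on the log2 scale (SE 0.44, adjusted p = 1.00), with a 95% interval of 0.31- to 1.22-fold. It was -1.29 without knockout 3 (edgeR unadjusted p = 0.0134, adjusted p = 0.818), -0.41 without knockout 2 and -0.29 by limma voom. A noncoding gene of the opposite strand, Gm14023, overlaps 222 exonic bases of Il1a and held 1103 counts over all libraries beside the 13780 of Il1a. Of the 50-base words of Il1a transcripts, 9.14% also occur in transcripts of other genes, Gm14023 among them.

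The ratio of Il1b to Il1a, taken within a library from counts per kilobase, ran from 18.9 to 91.5. Wild-type mice had ratios of 21.0, 32.8, 41.8 and 18.9, and knockout mice of 36.7, 91.5 and 24.3. Knockout 2 stood out, with high Il1b and the lowest Il1a of any library. On the log2 scale the means were 4.76 ± 0.539 (SD, n = 4) and 5.44 ± 0.980 (SD, n = 3), a difference of 0.68 with a two-sided exact permutation p of 0.257 (adjusted p = 0.486 over the 4 ratios tested, smallest possible p 0.0286). The difference was 0.14 without knockout 2 and 1.09 without knockout 3.

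Both inhibitors of IL-1 had lower means in knockout macrophages without passing the test. Il1rn, whose product occupies the IL-1 receptor without signalling, had wild-type values of 184, 576, 192 and 324 CPM. Knockout mice had 182, 226 and 253 CPM, near the lower wild-type mice. The wild-type coefficient of variation was 57.4%, the largest of the 10 genes in that group, against 16.2% in knockouts. The genotype estimate was -0.53 on the log2 scale (SE 0.39, edgeR adjusted p = 1.00), and -0.08 without wild-type 2.

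Il1r2, the decoy receptor that binds IL-1 without passing a signal on, had the smallest unadjusted p of the 10. The wild-type values were 63.9, 142, 72.4 and 70.5 CPM, and the knockout values were 33.2, 41.0 and 63.8 CPM. Every knockout mouse lay below every wild-type mouse, but wild-type 1 and knockout 3 differed by 0.0835 CPM, and under 3 of 4 other scalings knockout 3 lay above wild-type 1. Among all tested genes 3.33% had knockout libraries wholly below the wild-type ones, 2.8% wholly above and 6.12% either. The knockout mean was 52.7% of the wild-type mean, with a log2 fold change of -0.92 (SE 0.34, 95% interval -1.69 to -0.16, unadjusted p = 0.0230, edgeR adjusted p = 0.851). Without wild-type 2 the estimate was -0.58.

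Neutrophils and monocytes also transcribe Il1r2, and no marker of either passed the adjusted threshold. The summed monocyte markers ran from 3109 to 5692 CPM among wild-type mice and from 732 to 1994 CPM among knockouts, without overlap, and 9 of 10 had a negative fold change. By wild-type mean the largest parts of that sum were Fn1 (2194 CPM, against 530 CPM in knockouts) and Chil3 (999 CPM, against 57.3 CPM). Chil3 reached 3241 CPM in wild-type 2 and was 16.6 CPM in wild-type 1. The chemokine receptor gene Ccr2 measured 621 to 871 CPM and 294 to 489 CPM. Ly6c2 overlapped, at 19.0 to 101 CPM and 32.3 to 63.1 CPM (log2 fold change -0.29), and Itga4 was higher in knockouts (0.26). Summed over 14 neutrophil markers, wild-type mice had 144 to 241 CPM, wild-type 2 the most, and knockouts 129 to 192 CPM. Of these Ly6g was at 0 in all 7 libraries, and of the 9 tested 7 had a negative fold change. Csf3r stood at 66.0, 100.5, 81.0 and 53.3 CPM in wild-type mice 1 to 4 and at 65.7, 181 and 133 CPM in knockouts 1 to 3 (log2 fold change 0.75). It was nearly all of the sum in knockouts 2 and 3, whose sums were 192 and 144 CPM. In wild-type 1 and 4 Mmp9 was above it, at 108 and 78.2 CPM. Retnlg reached 48.6 CPM in wild-type 2 and at most 0.551 CPM in any knockout (log2 fold change -6.11). Cxcr2 stood at 0.957, 16.2, 0.398 and 3.29 CPM in wild-type mice 1 to 4. In knockouts 1 to 3 it stood at 7.21, 0 and 0.368 CPM (log2 fold change -1.03). The summed dendritic cell markers were 264 CPM in wild-type 2 and 50.5 to 110 CPM elsewhere. Ccr7 was their largest part in wild-type 2, at 170 CPM, whereas Xcr1 was lowest there. The part of neutrophils, monocytes and dendritic cells in the Il1b, Il1r2 and Il1rn values was not tested.

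The balance of Il1b to its antagonist Il1rn did not separate the genotypes. Wild-type ratios were 27.0, 20.1, 26.0 and 16.5, and knockout ratios were 23.5, 34.8 and 24.5. Although wild-type 2 had the most of both transcripts, its ratio lay between those of the other wild-type mice. The log2 difference between the groups was 0.31 (4.46 ± 0.335, SD, n = 4, against 4.76 ± 0.312, SD, n = 3), with a two-sided exact permutation p of 0.314 (adjusted p = 0.486).

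**Figure D2:**
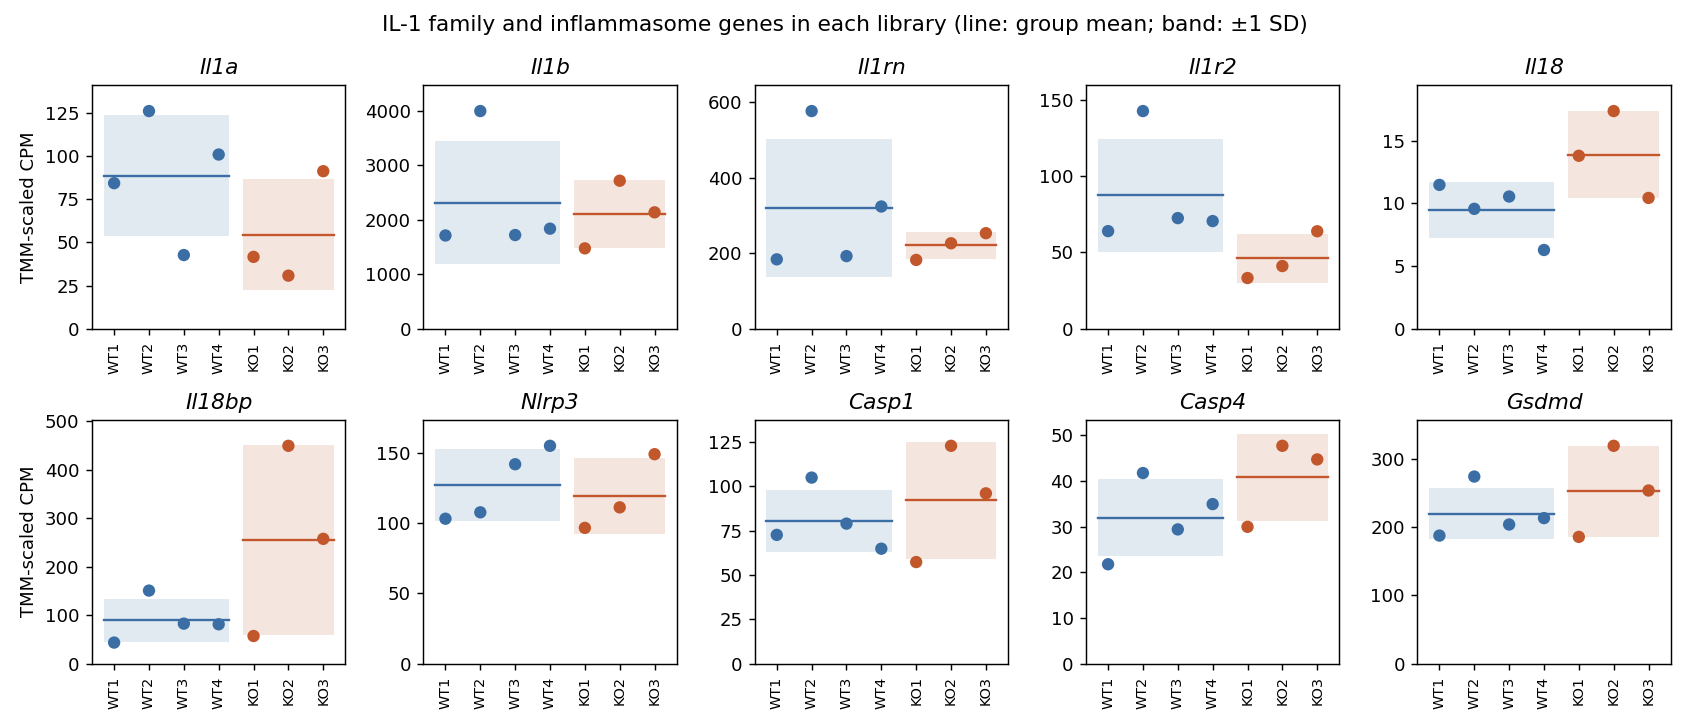
TMM-scaled CPM (vertical axes, from 0) of the 10 genes in wild-type mice WT1 to WT4 and knockout mice KO1 to KO3, with a line for the group mean and a band for 1 SD on either side. WT2 is the highest library for Il1a, Il1b, Il1rn and Il1r2, and KO2 for Il18, Il18bp, Casp1, Casp4 and Gsdmd.

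IL-18 and its binding protein had higher means in knockout macrophages, again without an adjusted call. Il18 was scarce, with 172 to 427 counts per library. Wild-type mice had 11.5, 9.57, 10.6 and 6.29 CPM of it, and knockout mice had 13.8, 17.4 and 10.4 CPM. Knockouts 1 and 2 lay above all wild-type mice, and knockout 3 lay below wild-type 1 and 3. EdgeR gave a log2 fold change of 0.55 (SE 0.28, adjusted p = 0.984), with a 95% interval of 0.942- to 2.28-fold.

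Il18bp, a secreted trap for IL-18 that interferon-γ is known to induce, varied the most of the 10 genes. Wild-type mice had 43.2, 151, 82.3 and 81.0 CPM of it. Knockouts 1 to 3 had 56.8, 449 and 257 CPM, a range of 10.4-fold over the 7 libraries. Knockouts 2 and 3 exceeded every wild-type mouse, whereas knockout 1 was lower than all but wild-type 1. Its log2 fold change was 1.51 (SE 0.61, 95% interval 0.14 to 2.89, unadjusted p = 0.0347, edgeR adjusted p = 0.917). It was 1.96 without knockout 1 (edgeR adjusted p = 0.158) and 0.81 without knockout 2 (edgeR adjusted p = 1.00).

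The interferon-induced GTPase genes Gbp2 and Gbp5 were also lowest among knockouts in knockout 1, and T and NK cell transcripts peaked in knockout 3. Gbp5 measured 24.3 CPM in knockout 1 against 78.6 and 72.9 CPM in knockouts 2 and 3, and 28.0 to 45.4 CPM in wild-type mice. For Gbp2 the values were 140, 485 and 421 CPM in knockouts and 122 to 428 CPM in wild-type mice, so the groups overlapped. The low place of knockout 1 was not particular to these genes. Ptprc stood at 498, 923 and 865 CPM in knockouts 1 to 3, and Txnip at 119, 224 and 230 CPM. Pycard went the other way, at 105, 75.7 and 61.6 CPM. The summed T cell markers were 22.7, 71.8 and 505 CPM in knockouts 1 to 3 and 35.5 to 130 CPM in wild-type mice, and the NK cell markers were 6.39, 11.1 and 138 CPM against 6.12 to 57.1 CPM. Il18bp was highest in knockout 2, where the T and NK cell sums lay below those of wild-type mice 2, 3 and 4. T and NK cells are a known source of interferon-γ, which such sums do not measure. The part of these cells in the Il18bp values was not tested. Numa1, on the opposite strand, shares 80 exonic bases with Il18bp and held 27335 counts over all libraries beside its 29349.

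The ratio of Il18 to Il18bp was below 1 in every library. Wild-type mice had ratios of 0.781, 0.187, 0.377 and 0.228, and knockouts of 0.714, 0.114 and 0.119. Knockouts 2 and 3 had the lowest ratios and knockout 1 the second highest. On the log2 scale the groups differed by -0.65 (-1.58 ± 0.919, SD, n = 4, against -2.23 ± 1.51, SD, n = 3), less than either SD, with a two-sided exact permutation p of 0.486 (adjusted p = 0.486). Without knockout 1 the difference was -1.52.

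**Figure D3:**
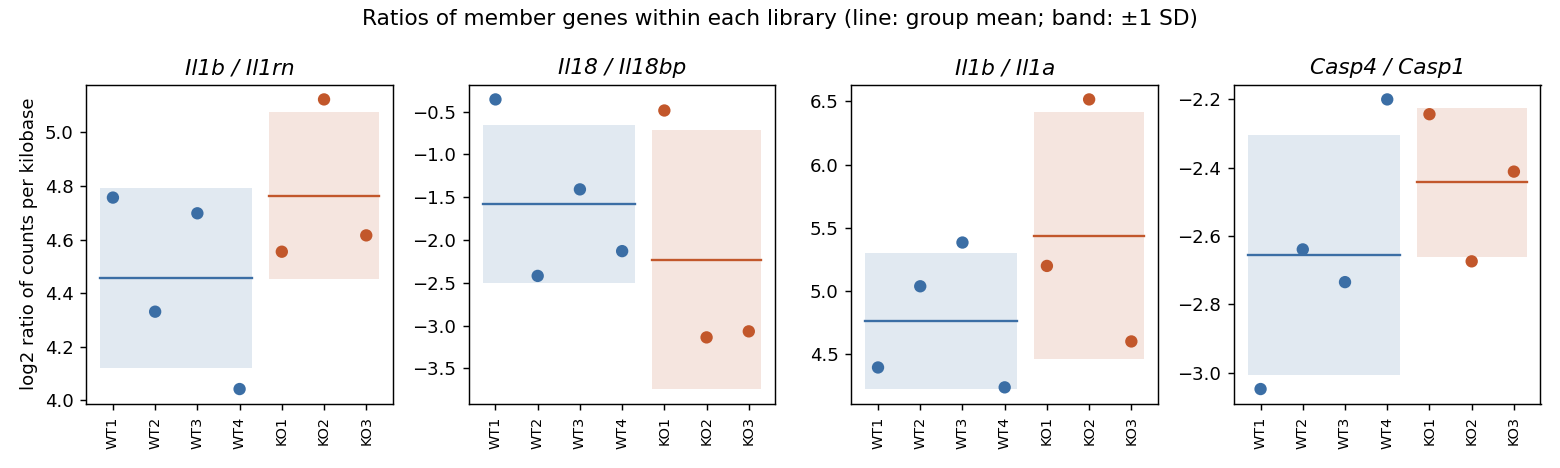
Log2 ratio of counts per kilobase (vertical axes, not from 0) of 4 gene pairs in each library, with lines for the group means and bands for 1 SD on either side. The genotypes overlap in all 4 panels, with mean differences of 0.31 for Il1b to Il1rn, -0.65 for Il18 to Il18bp, 0.68 for Il1b to Il1a and 0.21 for Casp4 to Casp1.

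None of the inflammasome genes passed the test. Nlrp3 encodes the sensor that responds to potassium loss and many forms of cell damage. Wild-type mice had 103, 108, 142 and 155 CPM of it, and knockouts had 96.7, 111 and 149 CPM. Its whole range was 1.60-fold, the narrowest of the 10 genes, and it was mixed between genotypes. By edgeR the difference was -0.09 on the log2 scale (SE 0.22, adjusted p = 1.00), with a 95% interval of 0.668- to 1.31-fold, and its sign turned without wild-type 4 (0.0096) or knockout 1 (0.025).

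Casp1, the protease that cuts pro-IL-1β and pro-IL-18, and Casp4, whose mouse product caspase-11 binds bacterial lipopolysaccharide, lie 1562 bases apart on chromosome 9 (5298517 to 5307265 and 5308828 to 5336783, plus strand). Casp1 stood at 72.6, 105, 79.0 and 64.8 CPM among wild-type mice and at 57.3, 123 and 96.1 CPM among knockouts. Casp4 stood at 21.8, 41.7, 29.4 and 34.9 CPM among wild-type mice and at 29.96, 47.7 and 44.7 CPM among knockouts. For both genes knockout 2 was the highest library, and the groups overlapped. The log2 fold changes were 0.20 (SE 0.27) for Casp1 and 0.35 (SE 0.25) for Casp4, each with an edgeR adjusted p of 1.00. The 95% intervals were 0.751- to 1.75-fold for Casp1 and 0.856- to 1.90-fold for Casp4. By limma voom Casp4 was at 0.64 (unadjusted p = 0.0163, adjusted p = 0.391). The estimate for Casp1 was -0.07 without knockout 2.

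Gsdmd, the pore former, was the second most abundant of the 10 per kilobase, at 92.6 ± 15.9 CPM per kilobase in wild-type mice (SD, n = 4). Wild-type mice had 188, 275, 204 and 214 CPM of it, and knockouts had 186, 320 and 254 CPM. Knockout 1 was the lowest and knockout 2 the highest of all libraries. The estimate was 0.20 on the log2 scale (SE 0.22, edgeR adjusted p = 1.00), with a 95% interval of 0.815- to 1.63-fold. It was -0.0026 without knockout 2 and 0.39 by limma voom (unadjusted p = 0.0460, adjusted p = 0.497). The ratio of Casp4 to Casp1 per kilobase spanned 0.121 to 0.217 among wild-type mice and 0.157 to 0.211 among knockouts, a log2 difference of 0.21 (two-sided exact permutation p = 0.400, adjusted p = 0.486).

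Ordered by wild-type level per kilobase, the genes ran Il1b, Gsdmd, Il1rn, Casp1, Il1r2, Il1a, Nlrp3, Il18bp, Il18 and Casp4. Il1b lay above Gsdmd in all 7 libraries, and Gsdmd above Il1rn in all 7. Il18bp lay above Il18 in all 7 as well. Between Il1rn and Il18bp the order was loose, since each neighbour in it changed places with the next in at least 1 library and their wild-type ranges overlapped. Il18 and Casp4, the scarcest, also changed places. In knockout macrophages Il18bp averaged 84.1 ± 64.9 CPM per kilobase (SD, n = 3), between Gsdmd at 107 ± 28.1 and Casp1 at 61.5 ± 22.1, although its wild-type mean of 29.5 ± 14.8 (SD, n = 4) was above those of Il18 and Casp4 alone.

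Centred on each gene's own mean, the libraries showed patterns that crossed genotype. Wild-type 2 held the highest value of Il1a, Il1b, Il1rn and Il1r2, from 0.92 to 1.18 log2 units above the gene mean. Knockout 2 held the highest value of 5 genes, Il18, Il18bp, Casp1, Casp4 and Gsdmd, from 0.46 to 1.95 above. Knockout 1 held the lowest value of 6 genes, Il1b, Il1rn, Il1r2, Nlrp3, Casp1 and Gsdmd. Knockout 2 was thus low in Il1a and Il1r2 (-1.10 and -0.62) and high in Il18bp (1.95) at once. These ranks rest on TMM scaling, whose factor was largest for knockout 1 (1.116) and smallest for knockout 2 (0.807). Whether the ranks hold under other scalings was not tested.

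**Figure D4:**
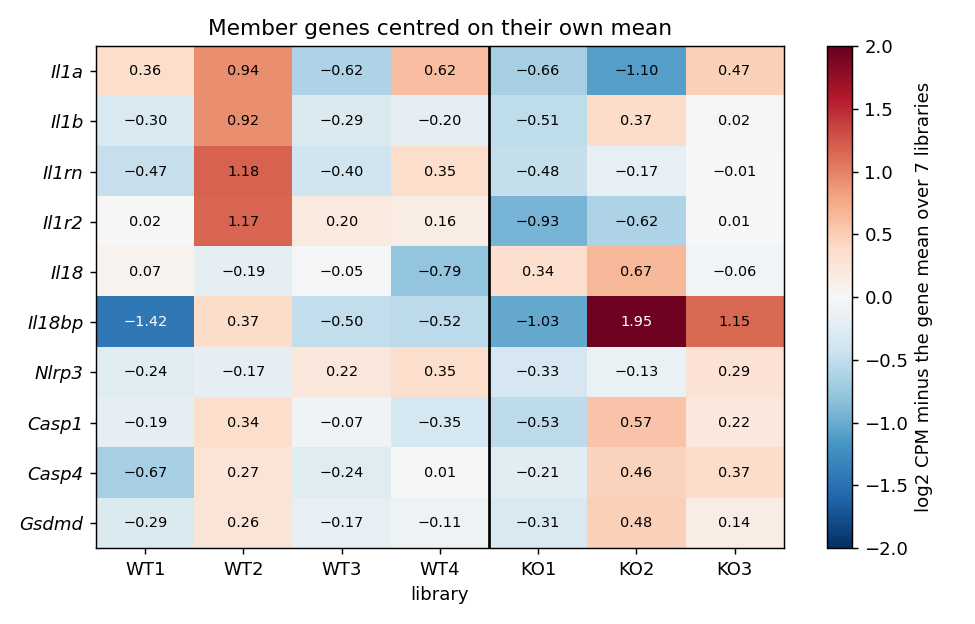
Log2 CPM of each of the 10 genes (rows) in each library (columns) minus the gene's mean over the 7 libraries, with red above and blue below that mean and a line between wild-type and knockout. The most extreme cells are Il18bp in KO2, at 1.95, and in WT1, at -1.42.

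Likeness of profile was measured as the root-mean-square difference of centred log2 CPM over the 7 libraries, among 10384 other genes of sufficient level. The closest to Il1b were Gpr171 (0.127), Bambi (0.155), a pseudoreceptor of the TGF-β family, and Mocs2 (0.164), where Il1b itself varied by 0.458 around its mean. The closest to Casp1 were Txndc16 (0.0419), Slc48a1 (0.0820), a haem transporter, and Sirpb1a (0.0829), against a variation of 0.365. The closest to Il18 were Rnf2 (0.132), Nfatc2ip (0.143) and Senp8 (0.143), against 0.419. Of the 10 genes, Gsdmd was the most like Casp1, at rank 54, and Casp1 ranked 161 for Gsdmd. For Il1b the closest of the 10 were Casp1 at rank 181 and Gsdmd at rank 220, ahead of its antagonist Il1rn at rank 465. For Il18bp, looked up after its values were seen, the closest were Gpr18 (0.216), the MHC class II invariant chain Cd74 (0.241) and Slamf7 (0.261), against 1.13. As the closest of so many genes over 7 points, these are descriptions.

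Other genes of the pathway, read from 6 lists, gave no call either. Of the 10 IL-1 family ligands and antagonists 4 were tested, all of them among the genes above. Il36a, Il36b, Il36rn and Il1f10 had 0 counts in all libraries, and Il33, an alarmin, had at most 26 counts. Il36g, an IL-36 agonist, had 4, 42, 7 and 52 counts in wild-type mice 1 to 4 and 0 in all 3 knockout mice. It was below the filter on low counts and so was not among the genes tested. Its wild-type mean of 0.980 ± 0.909 CPM (SD, n = 4) was at least 26.5-fold above the knockout group, against a floor of 3 counts over that group, which covers counting error only. Fitted without the filter it had an edgeR adjusted p of 0.322. The IL-36 receptor Il1rl2 was likewise highest in wild-type 2 and 4, at 70.6 and 51.4 CPM, against 22.01 and 21.27 CPM in wild-type 1 and 3 and 23.98, 11.43 and 34.26 CPM in knockouts (log2 fold change -0.83, SE 0.50, edgeR adjusted p = 1.00). Of the tumour and epithelial markers, Cdh1 was also highest in wild-type 2 and 4, at 375 and 437 CPM against 37.6 to 167 CPM elsewhere. Krt8, Krt19 and Cldn4 were at 0 in wild-type 2, Epcam was below its wild-type 3 value there, and Lgals4 was lowest there. Markers of other cells were also highest in wild-type 2 and 4, among them Retnlg (48.6 and 10.6 CPM), Mmp8 (21.2 and 14.4 CPM) and Chil3 (3241 and 707 CPM). Csf3r, Mmp9 and Fn1 were not. The part of epithelial cells, neutrophils or monocytes in the Il36g values was not tested.

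Among the IL-1 family receptors and decoys 7 of 9 had a negative fold change and 0 passed, with a median of -0.70 beside -0.0016 for all tested genes. Some of them were scarce, with 0 to 78 counts of Il1r1 and 1 to 165 of Il18r1 per library. Il18r1 and Il18rap were highest in knockout 3, at 6.07 and 19.6 CPM, where the T and NK cell sums also peaked. Il1rap, the co-receptor shared by the IL-1, IL-33 and IL-36 receptors, stood at 14.4, 15.7, 17.3 and 20.9 CPM among wild-type mice and at 10.7, 12.7 and 8.12 CPM among knockouts. The groups did not overlap, and the log2 fold change was -0.70 (SE 0.24, unadjusted p = 0.0167, edgeR adjusted p = 0.821). It was described after its values were seen. The signalling receptor Il1r1 averaged 0.241 CPM per kilobase in wild-type mice, where the decoy Il1r2 averaged 45.8 CPM per kilobase. Sigirr, an inhibitory receptor, had -0.22 (SE 0.43, edgeR adjusted p = 1.00).

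Of 12 tested inflammasome sensors and adaptors 5 had a positive and 7 a negative fold change, with a median of -0.05 and 0 past the threshold. Pycard, which encodes the adaptor ASC, had -0.09 (SE 0.22), and Naip2, a sensor of bacterial secretion proteins, 0.09 (SE 0.17). The triggers and regulators of NLRP3 had 6 of 10 positive, a median of 0.23 and 0 past the threshold, with the lipopolysaccharide co-receptor Cd14 at -0.04 (SE 0.21) and Tlr2 at 0.67 (SE 0.32, edgeR adjusted p = 0.973). Tlr2 was highest in knockout 2, at 1120 CPM, as the summed macrophage markers were.

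Caspases and pyroptosis effectors had 5 of 8 positive with a median of 0.14 and 0 past the threshold. Ninj1, which ruptures the plasma membrane after pore formation, had 0.25 (SE 0.25), and Casp8 -0.06 (SE 0.20). The IL-1 receptor signalling list had 7 of 11 positive with a median of 0.06 and 0 past the threshold, with the adaptor Myd88 at -0.12 (SE 0.16) and the kinase Irak1 at 0.03 (SE 0.17). The 6 lists had 4, 9, 12, 10, 8 and 11 tested genes, in the order given. Together they held 6 genes at an unadjusted p under 0.05, where 5.37% of all tested genes passed. These were Il18bp, Tollip and Tab2 on the higher side and Il1r2, Il1rap and Naip1 on the lower.

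**Figure D5:**
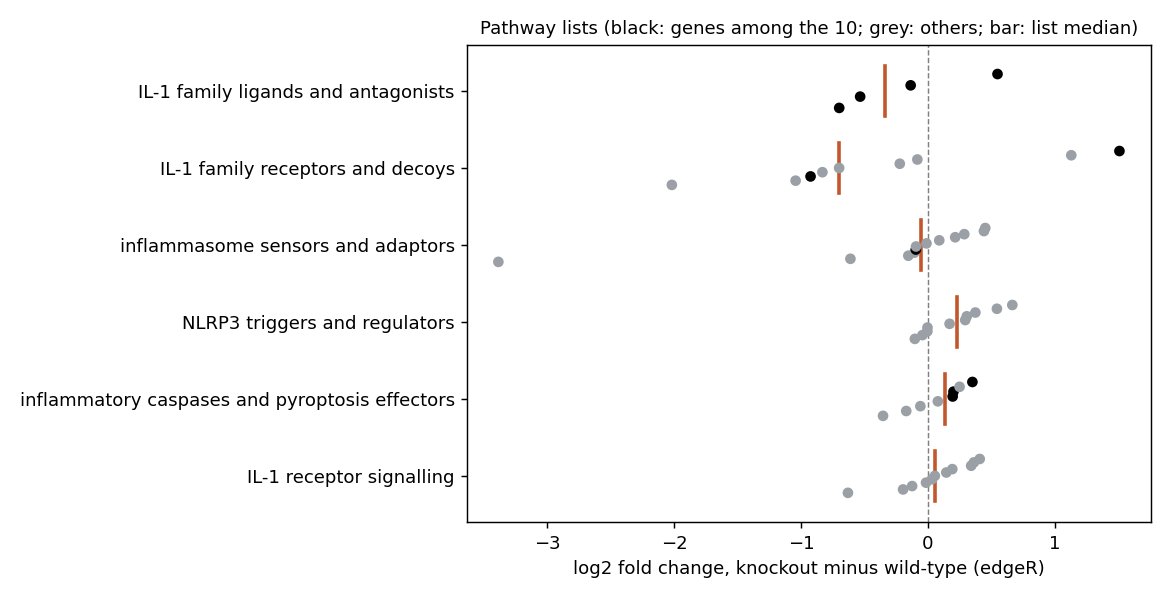
Log2 fold change, knockout minus wild-type (horizontal axis), of the tested genes of 6 pathway lists (rows), with black points for genes among the 10, grey points for others and a bar for the list median. The receptors and decoys have the lowest median, at -0.70, and no point passed the adjusted threshold.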

How the data were processed

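The authors deposited a table of raw read counts per gene, 1 column for each of 7 mice, and all its columns matched a sample. Libraries were prepared from polyA RNA by SMART-seq, per the labels' protocols. Per the submitters' processing notes, the build was GRCm38 and BWA 0.7.12, DESeq2 1.24.0, cutadapt 1.15 and FastQC 0.11.5 were used, in no stated role. The read counter and its use of strand are not given in the sources used here. Antisense reads cannot be told apart.

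Identifiers were matched to GENCODE M21 (99.8% of 53379), and lengths are unions of exons. Rows without a symbol held 0.000338% of counts and stayed under their identifier. Genotype was fitted with edgeR 4.0.16 in R 4.3.3 (quasi-likelihood, robust, TMM, default filter on low counts, Benjamini-Hochberg over 16234 genes). Intervals are 95%, from the fit's SE. Log2 CPM used a prior count of 2. Ratios of counts plus 0.5 were compared by two-sided exact permutation over 35 splits. On simulated counts for 16234 genes the test called 11 of 100 genes simulated at 2-fold and 53 of 100 at 4-fold, with 3 false calls among 67. The 10 genes, the 6 pathway and 9 cell type lists were chosen with earlier results of these data known. Named genes were Gpr65, the 10 genes, the 2 most abundant other genes of each list per kilobase, and the 3 closest profiles of Il1b, Il18 and Casp1, and others were chosen after their values were seen. Alternatives were other scalings and filters, DESeq2 1.42.0, edgeR without robust estimation, a threshold of 0.1 and a replicate block. Further ones were other lengths and pseudocounts, each library left out, and limma voom (limma 3.58.1) with library weights. Those weights let libraries count unequally.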

Additional observations from a re-analysis of the deposited data

Results flagged for a closer look

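Among 14 sets of 4 wild-type values examined, wild-type mouse 2 stood apart in 2. Its distance from the next mouse, as a share of the range of the 4, was 0.945 for Il1b CPM and 0.892 for Il1r2 CPM, with wild-type 2 the highest in both, past Dixon's 95% limit for 4 samples. Chance flags about 1 in 20 such sets. Knockout values were not examined, since Dixon's limit was used for 4 or more samples.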

How the results depend on the processing

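None of the 10 genes was called under any alternative run. The count over all genes was 6, and it was 11 without the filter on low counts, 114 by DESeq2, 1 with the replicate block and 3 to 14 with single libraries left out, highest without knockout 1 and lowest without knockout 2. Il1a, Il1r2, Il18, Il18bp and Casp4 kept their direction in all 17 alternatives, with Il1a between -1.29 and -0.29, Il1r2 between -1.23 and -0.54 and Il18bp between 0.81 and 1.99 on the log2 scale. By limma voom with library weights Il1b was 0.27, Il1rn 0.040 and Nlrp3 0.018. With the replicate block Nlrp3 was 0.0078. Their signs thus turned, and the cause was not tested. With single libraries left out, Il1b ran from -0.36 to 0.27, Nlrp3 from -0.29 to 0.025, Casp1 from -0.070 to 0.43 and Gsdmd from -0.0026 to 0.36. The gap between lowest wild-type and highest knockout Il1r2 was -0.89, -1.15 and -2.06 CPM under TMMwsp, RLE and upper quartile scaling, alternatives added after seeing the data, and 6.80 CPM with library totals only, a scaling that moved the median of all genes to -0.11. The 4 ratios kept their direction under every alternative, and with single libraries left out the differences ran from 0.13 to 0.41 for Il1b to Il1rn, -1.52 to -0.20 for Il18 to Il18bp, 0.14 to 1.09 for Il1b to Il1a and 0.08 to 0.36 for Casp4 to Casp1. Mice that share a number are not stated to share a litter or day, and their deviations correlated at 0.0656, 0.0509 and 0.0882, so the replicate block, in which the 4 ratio differences were 0.17, -0.84, 0.50 and 0.36, pairs them by number only. With 3 knockout mice, changes of 2-fold were mostly below what the test recovered on simulated counts, so a missed threshold does not show equal levels.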
